A study of Mus musculus with 2 samples.

Results

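The interferon-stimulated antiviral module is a list of 39 mouse genes that cells switch on when they sense type I interferon, and it was followed here through the white blood cells of the lung. Members were taken by gene symbol, and 38 of the 39 were measured among the 31053 genes of both count tables. Mx2 was not analysed here. UMI below stands for unique molecular identifier, a tag that counts single transcripts. The DEP500 library came from mice that inhaled diesel exhaust particles, the soot of diesel engines, at 500 µg/m3 in a whole-body chamber, 1 hour daily on 5 days of each of 2 weeks. The control library came from mice without treatment. Both libraries are labelled Ccr2-/- (KO), DEP500 with CD45.3+ and control with CD45.1+, while the design text names both C57BL/6J (wild-type) and Ccr2-/- animals. CD45+ cells, the leukocytes, came from lung digests by flow sorting. A group is 1 library, and no statement says whether it pooled animals.

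Ccr2, the monocyte chemokine receptor named in the genotype, was read first as a check of that label. In classical monocytes, the cells that use it most, the library labelled DEP500 held 776 CPM (5645 UMIs; CPM is the gene's UMIs per 1000000 UMIs of the class) and the library labelled control 589 CPM (1907 UMIs). Transcripts of Ccr2 were thus present in both libraries labelled as its knockout. A 3' tag outside a deleted stretch would still be counted, so these reads alone do not check the deletion. The genotype of the animals behind both libraries is therefore not certain here, and the exposure cannot be told apart from any other difference between them.

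The libraries held 10000 barcodes with 67030914 UMIs in DEP500 and 10312 barcodes with 62047730 UMIs in control, and they shared 23 barcodes. After filters and removal of doublets, 8690 DEP500 cells and 8940 control cells remained, and the median cell held 4156 UMIs in DEP500 and 3673.5 in control. Clusters built without the module genes were named from marker genes, and the 12 classes that reached 50 cells in DEP500 and in control were compared. Each class name below means cells like the named type. A direct gate on the same marker lists was also run on each cell. Of the 17296 cells named by both ways, proliferating cells left out, 96.5% had the same class. A single library stood for each group, which leaves nothing to test against, and every interval given is a 95% interval of counting error only.

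Type I interferons are secreted proteins that warn cells of infection. They bind a receptor on nearly all cells, whose kinases set off a transcription factor complex called ISGF3. ISGF3 enters the nucleus and binds the interferon-stimulated response element (ISRE) in the promoters of its target genes. Among the products are enzymes that destroy or edit viral RNA, proteins that trap virus particles at the membrane, sensors that find viral nucleic acid, and transcription factors that amplify the response. In the lung, resident macrophages and recruited neutrophils and monocytes can all carry this program, also at low levels without infection.

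The promoters of the members were examined for the ISRE because it is the element that ISGF3 reads. The core searched for was GAAANNGAAA, or TTTCNNTTTC on the other strand, in the 250 bases before the start site given by RefSeq (GRCm38.p6). It was found in 13 of the 29 members with a RefSeq promoter (44.8%), against 936 of all 27025 genes with one (3.46%). The following stretches belong to the 6 members with the motif and the largest summed UMI count whose stretch lay outside an annotated gene body. Each reads 5' to 3' along the gene and ends 11 bases before the start site, and capitals mark the motif, overlapping copies merged.
Isg15: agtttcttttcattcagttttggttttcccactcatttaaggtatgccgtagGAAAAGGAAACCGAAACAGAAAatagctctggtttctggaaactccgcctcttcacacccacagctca
Bst2: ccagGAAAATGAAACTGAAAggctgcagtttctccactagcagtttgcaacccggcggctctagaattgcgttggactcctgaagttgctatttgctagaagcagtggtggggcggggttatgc
Trim30a: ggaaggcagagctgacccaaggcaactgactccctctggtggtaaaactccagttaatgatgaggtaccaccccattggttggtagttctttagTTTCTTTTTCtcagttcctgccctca
Rsad2: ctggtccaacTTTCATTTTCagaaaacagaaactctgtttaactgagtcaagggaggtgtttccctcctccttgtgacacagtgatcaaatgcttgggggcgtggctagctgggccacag
Oas3: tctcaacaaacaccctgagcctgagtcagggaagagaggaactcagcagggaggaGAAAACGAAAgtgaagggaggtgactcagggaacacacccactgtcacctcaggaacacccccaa
Slfn8: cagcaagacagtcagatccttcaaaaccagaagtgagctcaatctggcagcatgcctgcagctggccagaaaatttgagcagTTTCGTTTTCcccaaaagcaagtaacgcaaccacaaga
All 6 genes lie on the minus strand. The printed stretches lie at chr4:156200829-156200948 for Isg15, chr8:71537483-71537606 for Bst2, chr7:104465204-104465323 for Trim30a, chr12:26456463-26456582 for Rsad2, chr5:120777670-120777789 for Oas3 and chr11:83020821-83020940 for Slfn8. The Isg15 promoter held 3 overlapping copies and the Bst2 promoter 2, and the others held 1 each. A motif match is a description of letters and not of binding. Among members with enough counts in neutrophils, the median log2 ratio of DEP500 over control was 0.40 for the 13 with the motif and 0.45 for the 15 without it. The ranges were −0.25 to 2.11 and 0.09 to 1.10 and overlapped, so presence of this core did not separate the members.

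Across all kept cells the module summed to 1435 CPM in DEP500 and 1134 CPM in control, a log2 ratio of 0.34 (0.32 to 0.36). In that pool 6 of 38 members were higher (Isg15, Ifit3b, Oasl2, Oas1a, Usp18 and Rtp4), each by at least 1.5-fold with an interval that excludes equality, where 1.76% of all genes were higher and 4.55% lower. This pooled value mixed classes that went in different directions. In neutrophils, short-lived phagocytes that enter the lung from blood, the module stood at 3930 CPM (3886 to 3973) in DEP500 and 2626 CPM (2589 to 2662) in control. That was 1.50-fold higher, a log2 ratio of 0.58 (0.56 to 0.61). In classical monocytes, the Ly6C-high blood cells that become tissue macrophages, it stood at 2496 CPM (2460 to 2532) in DEP500 and 2926 CPM (2867 to 2986) in control. That was a log2 ratio of −0.23 (−0.27 to −0.19). CPM is a share of UMIs, and the median classical monocyte held 12302 UMIs in DEP500 and 8779 in control. The sums were 18158 module UMIs from 579 DEP500 cells and 9472 from 365 control cells. A fall in monocytes below is thus a lower share and does not by itself mean fewer transcripts per cell.

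**Figure D1:**
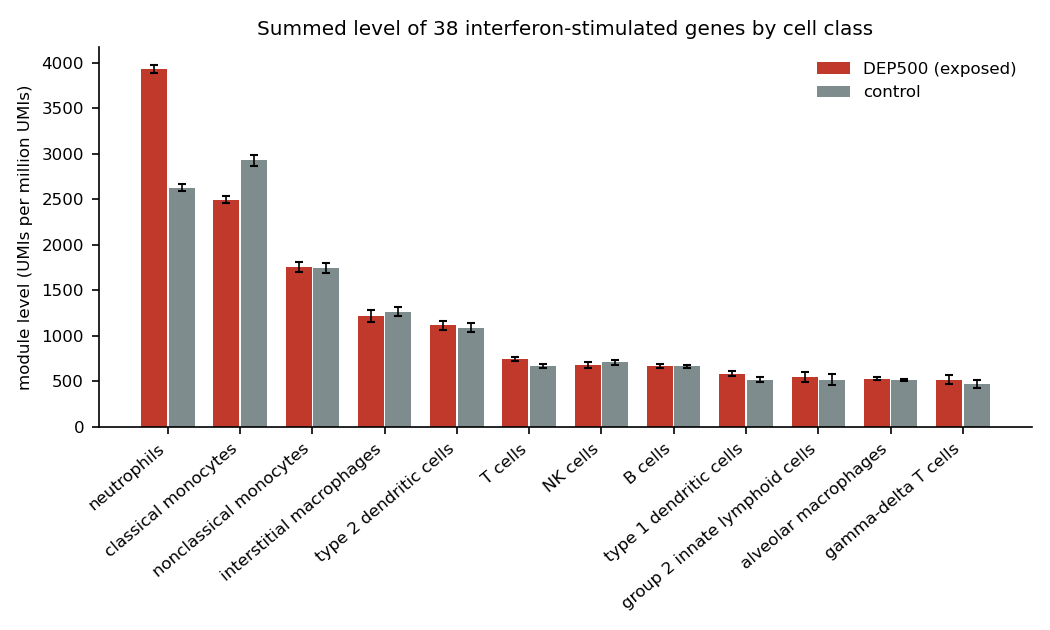
Summed level of the 38 measured members (y axis, CPM) in 12 cell classes (x axis), DEP500 in red beside control in grey, 1 library each. Bars are class sums and error bars exact Poisson 95% intervals of counting error. DEP500 neutrophils stand highest at 3930, against 2626 in control neutrophils, while classical monocytes stand at 2496 in DEP500 and 2926 in control.

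The plot of summed levels shows neutrophils and monocytes far above lymphocytes in both libraries. In DEP500 the order was neutrophils, classical monocytes, nonclassical monocytes (1752 CPM), interstitial macrophages (1215), type 2 dendritic cells (1112), T cells (744), NK cells (678), B cells (667), type 1 dendritic cells (583), group 2 innate lymphoid cells (543), alveolar macrophages (526) and gamma-delta T cells (517). The intervals overlapped between interstitial macrophages and type 2 dendritic cells, between NK and B cells, and between each neighbouring pair of the last 4 classes, while those of type 1 dendritic cells and alveolar macrophages did not. In control, classical monocytes stood first and neutrophils next, followed by nonclassical monocytes (1739), interstitial macrophages (1264) and type 2 dendritic cells (1087). Neutrophils and classical monocytes thus changed places between the libraries, and the other classes kept nearly the same levels.

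The remaining classes differed little. T cells held 744 CPM in DEP500 and 667 CPM in control, a log2 ratio of 0.16 (0.10 to 0.21). Type 1 dendritic cells, which present antigen to CD8 T cells, held 583 and 513 CPM in DEP500 and control, a log2 ratio of 0.18 (0.08 to 0.29). Their main contributor was Bst2, tetherin, which tethers budding virions to the cell surface, at 143 CPM in DEP500 and 99 CPM in control. In the other 8 classes the interval of the log2 ratio included 0. Alveolar macrophages, the particle-clearing cells of the air spaces, were among these at 526 CPM in DEP500 and 510 CPM in control, with a log2 ratio of 0.05 (−0.01 to 0.10).

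Within alveolar macrophages the module was uneven. A cluster of 78 DEP500 and 80 control cells, with Ccl17, Axl and Mrc1 among its leading genes, held 1028 CPM in DEP500 and 922 CPM in control. The main cluster, of 499 DEP500 and 385 control cells, held 380 and 363 CPM. The median cell held 28843.5 UMIs in the first cluster and 16177.5 in the main one. Ccl17 is also a listed marker of type 2 dendritic cells. Whether the first cluster holds doublets or mixed cells was not tested. Another cluster of 32 DEP500 and 36 control cells was too small for a value of its own. Isg15 stood at 95.3 CPM in DEP500 and 80.3 CPM in control in the Axl cluster, against 7.17 and 7.20 CPM in the main one. Between the libraries both clusters moved far less than the clusters differed from each other.

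A member was called higher or lower where its ratio passed 1.5-fold, its interval excluded equality and its summed count in the class was at least 20. In neutrophils 12 of the 36 members with enough counts were higher and 0 lower, where 2.69% of all genes tested were higher and 7.1% lower. The median member had a log2 ratio of 0.46, beside −0.10 for all genes, and 35 of 36 lay above 0. In classical monocytes 1 of 38 was higher and 8 were lower, where 5.07% of all genes were higher and 5.87% lower. The median member there stood at −0.23, beside −0.03 for all genes, with 10 above 0 and 28 below.

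**Figure D2:**
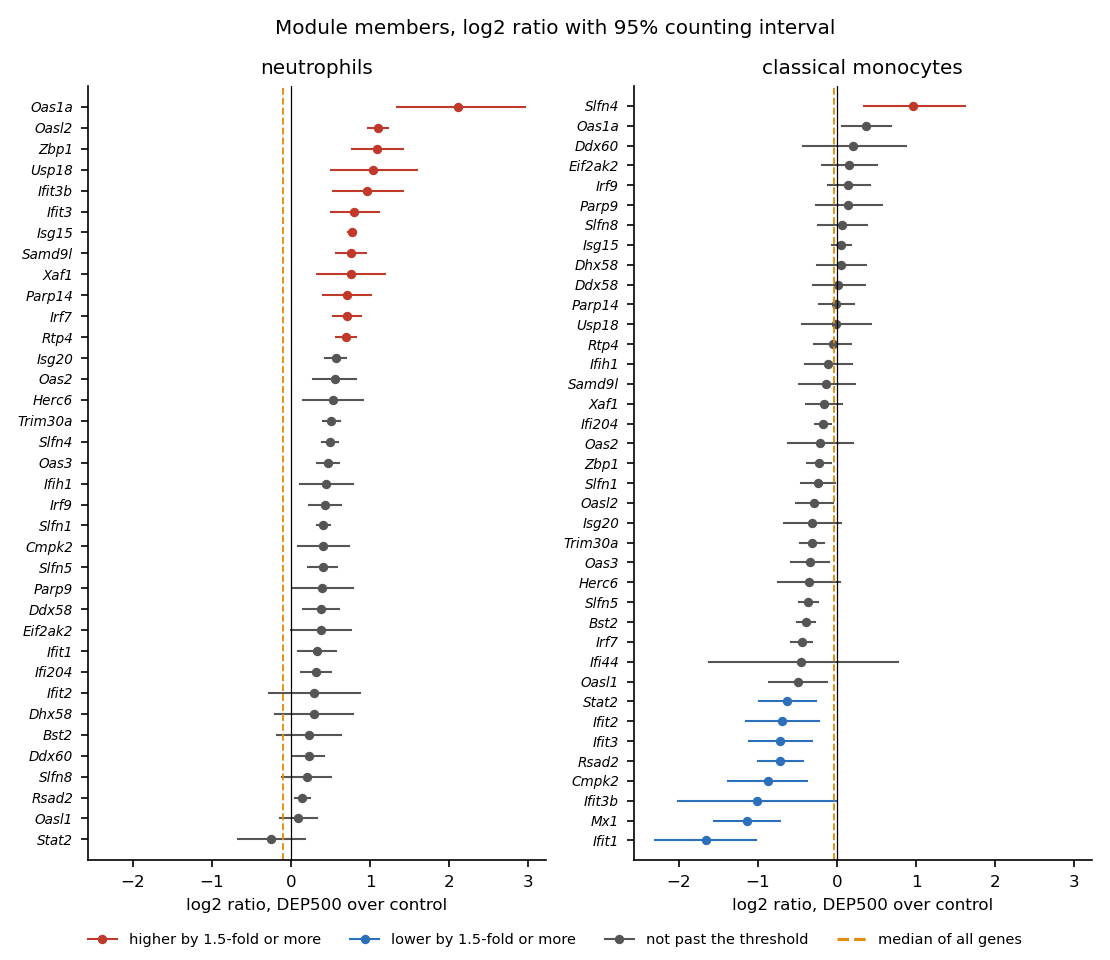
Log2 ratio of DEP500 over control for each member in neutrophils and in classical monocytes, with exact 95% intervals of counting error; red and blue mark members called higher and lower, and the dashed line is the median of all genes. Oas1a, Oasl2 and Zbp1 lie furthest above 0 in neutrophils, and Ifit1 and Mx1 lie furthest below 0 in classical monocytes.

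Isg15 encodes a ubiquitin-like protein that is attached to viral and host proteins and is also secreted. It supplied 33.2% of all module UMIs in DEP500 neutrophils and 29.2% in control neutrophils. Its level was 1306 CPM (1281 to 1331) in DEP500 and 766 CPM (747 to 786) in control, from 10461 and 5785 UMIs, and it rose 1.70-fold. In classical monocytes Isg15 stood at 266 CPM in DEP500 and 256 CPM in control, a log2 ratio of 0.05 (−0.07 to 0.17). Monocytes were also split by the UMIs of the other members, counted with cells brought to equal depth. The log2 ratio of Isg15 was 1.52 (0.96 to 2.13) in cells with none and 0.36 (0.16 to 0.57) at 1 to 2. It was −0.15 (−0.35 to 0.04) at 3 to 6. At 7 or more it was 0.39 (0.12 to 0.66), from 25 DEP500 and 26 control cells. Within a range the level of the other members can still differ between the libraries. Usp18, the protease that removes ISG15 and also blocks the interferon receptor, rose to 11.7 CPM in DEP500 neutrophils, against 5.70 CPM in control neutrophils. In classical monocytes it stood at 19.9 CPM in DEP500 and 20.1 CPM in control.

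Isg15 was also called outside the neutrophils. It was higher in T cells (74.6 CPM in DEP500, 45.2 in control), in type 2 dendritic cells (122 and 74.3) and in gamma-delta T cells (52.1 and 29.6). It was lower in interstitial macrophages, at 90.3 CPM in DEP500 and 148 CPM in control. In nonclassical monocytes it stood at 318 CPM in DEP500 and 257 CPM in control, a ratio under 1.5-fold. B cells, at 9.93 CPM in DEP500 and 8.71 CPM in control, and type 1 dendritic cells, at 10.0 and 12.9 CPM, held the least. Over the 24 points of 12 classes in 2 libraries, the genes outside the module whose log2 level followed Isg15 most closely were Rhog, Stx11, Snx18, Ston2 and Map3k15, with Pearson r of 0.87 to 0.89. Classes of 1 library share depth and free RNA, so this is a description only.

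The oligoadenylate synthetases, which detect double-stranded RNA and activate the RNA-degrading RNase L, and their like proteins did not move together. Oas1a had 78 UMIs in DEP500 neutrophils and 17 in control neutrophils, or 9.74 and 2.25 CPM, a log2 ratio of 2.11 (1.34 to 2.96). Its last 400 transcript bases share 30.3% of their 31-base words with Oas1g, so its count is uncertain. Oasl2, a ubiquitin-like relative, rose to 208 CPM (1668 UMIs) in DEP500 neutrophils, against 96.8 CPM (731 UMIs) in control, a log2 ratio of 1.10 (0.98 to 1.23). Its neighbour Oasl1 stood at 41.6 CPM in DEP500 and 38.9 CPM in control. These neighbours lie at chr5:114896936-114912234 for Oasl2 and chr5:114923240-114937915 for Oasl1, both on the plus strand of mm10 by GENCODE, and shared no 31-base word at their ends. Oas2 at 35.3 and 24.1 CPM and Oas3 at 132 and 95.5 CPM, each in DEP500 and control, were higher by less than 1.5-fold. In classical monocytes none of the 5 was called, and Oas1a stood at 46.7 CPM in DEP500 and 36.1 CPM in control.

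The IFIT proteins bind foreign RNA ends and stop their translation, and their 4 genes sit side by side at chr19:34550694-34650009. In neutrophils Ifit3 rose to 32.8 CPM in DEP500, against 18.8 CPM in control, and Ifit3b to 17.1 CPM in DEP500, against 8.74 CPM in control. Ifit1 at 41.2 and 32.9 CPM and Ifit2 at 7.61 and 6.23 CPM, each in DEP500 and control, were not called. In classical monocytes all 4 fell. Ifit1 had 37 UMIs in 24 DEP500 cells and 52 UMIs in 24 control cells, or 5.09 and 16.1 CPM, a log2 ratio of −1.66 (−2.31 to −1.02). Ifit2 stood at 13.2 CPM in DEP500 and 21.3 CPM in control, and Ifit3 at 17.5 and 28.7 CPM. Ifit3b had 20 UMIs in DEP500 and 18 in control, and the upper end of its interval was −0.01. These counts came from few cells: 1 cell held 16.2% of the Ifit1 UMIs in DEP500 monocytes and 19.2% in control monocytes. With the 1 cell richest in module UMIs left out of each library, a choice made after seeing the data, 5 monocyte members in place of 8 were lower.

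Rsad2 encodes viperin, an enzyme that makes a chain-terminating nucleotide, and Cmpk2, next to it on chromosome 12, supplies nucleotides for that reaction. Rsad2 was among the 3 members with the most counts in neutrophils, at 248 CPM (1988 UMIs) in DEP500 and 225 CPM (1695 UMIs) in control, a log2 ratio of 0.14 (0.05 to 0.24). Cmpk2 stood at 25 CPM in DEP500 and 18.8 CPM in control. In classical monocytes both fell, Rsad2 to 33.4 CPM in DEP500, against 55.0 CPM in control (−0.72, −1 to −0.43), and Cmpk2 to 10.6 CPM in DEP500, against 19.5 CPM in control (−0.88, −1.38 to −0.37). Mx1, the gene of a dynamin-like GTPase, fell in classical monocytes to 14.0 CPM in DEP500, against 30.9 CPM in control (−1.14, −1.55 to −0.73). Neutrophils held 2 Mx1 UMIs in DEP500 and 3 in control, too few to compare. Isg20, an exonuclease that degrades single-stranded RNA, stood at 144 CPM in DEP500 neutrophils and 97.5 CPM in control neutrophils, just under 1.5-fold.

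Among regulators, Irf7, the transcription factor that amplifies interferon production, rose to 89.4 CPM in DEP500 neutrophils, against 54.8 CPM in control. In classical monocytes Irf7 stood at 169 CPM in DEP500 and 230 CPM in control, a log2 ratio of −0.44. Stat2 and Irf9 encode subunits of ISGF3. Stat2 was the only counted member below 0 in neutrophils, at 11.5 CPM in DEP500 and 13.6 CPM in control (−0.25, −0.67 to 0.17), and it fell in classical monocytes to 22.0 CPM in DEP500, against 34.0 CPM in control. Irf9 stood at 60.0 and 44.5 CPM in DEP500 and control neutrophils. Parp14, an ADP-ribosyl transferase, rose in neutrophils to 32.0 CPM in DEP500, against 19.6 CPM in control, while Parp9 stood at 17.2 and 13.1 CPM.

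Sensors of nucleic acid were mostly under the threshold. Zbp1, which senses Z-form nucleic acid and can start necroptosis, rose to 33.6 CPM (269 UMIs) in DEP500 neutrophils, against 15.8 CPM (119 UMIs) in control, a log2 ratio of 1.09 (0.77 to 1.41). In classical monocytes Zbp1 was more abundant per UMI, at 151 CPM in DEP500 and 177 CPM in control, and was not called. The RNA helicases Ddx58 (RIG-I), Ifih1 (MDA5), Dhx58 (LGP2) and Ddx60, and the kinase Eif2ak2 (PKR), had log2 ratios of 0.22 to 0.45 in neutrophils, none called. Ifi204, a DNA sensor, was the member with the most counts in classical monocytes, at 314 CPM in DEP500 and 356 CPM in control (−0.18, −0.28 to −0.07).

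Other effectors completed the neutrophil set. Rtp4, a chaperone of membrane receptors that also binds viral RNA, rose to 186 CPM in DEP500, against 115 CPM in control. Samd9l, a translation repressor, rose to 75.8 CPM in DEP500, against 44.8 CPM in control, and Xaf1, a promoter of cell death, to 16.1 CPM in DEP500, against 9.54 CPM in control. Slfn1, a Schlafen protein tied to lymphocyte quiescence, was the member with the next most neutrophil counts after Isg15, at 326 CPM in DEP500 and 245 CPM in control (0.41, 0.32 to 0.50). Slfn4 stood at 240 and 171 CPM, Slfn5 at 75.5 and 57.2 CPM and Trim30a, a brake on Toll-like receptor signalling, at 222 and 156 CPM, each in DEP500 and control neutrophils and each under 1.5-fold. Herc6 and Slfn8 had neutrophil log2 ratios of 0.53 and 0.20, neither called. The ends of Trim30a and of Slfn8 share 22.7% and 13.7% of their words with Trim30d and Slfn9, so their counts are uncertain. Ifi44 had 0 UMIs in neutrophils of both libraries, which allows up to 0.374 CPM in DEP500 and 0.397 CPM in control.

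Slfn4 was the single member higher in classical monocytes, at 16.2 CPM (118 UMIs) in DEP500 and 8.34 CPM (27 UMIs) in control. Beside it, the 10 neutrophil markers summed to 1411 CPM in DEP500 monocytes and 922 CPM in control monocytes, with none at 0. Of these, S100a8, S100a9 and Retnlg summed to 795 CPM in DEP500 monocytes and 247 CPM in control monocytes. In neutrophils they summed to 171135 CPM in DEP500 and 153965 CPM in control, where Slfn4 stood at 240 and 171 CPM. The part of neutrophil RNA in the monocyte value of Slfn4 was not tested. Bst2 stood at 240 CPM in DEP500 monocytes and 314 CPM in control monocytes, a log2 ratio of −0.39 (−0.50 to −0.28).

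**Figure D3:**
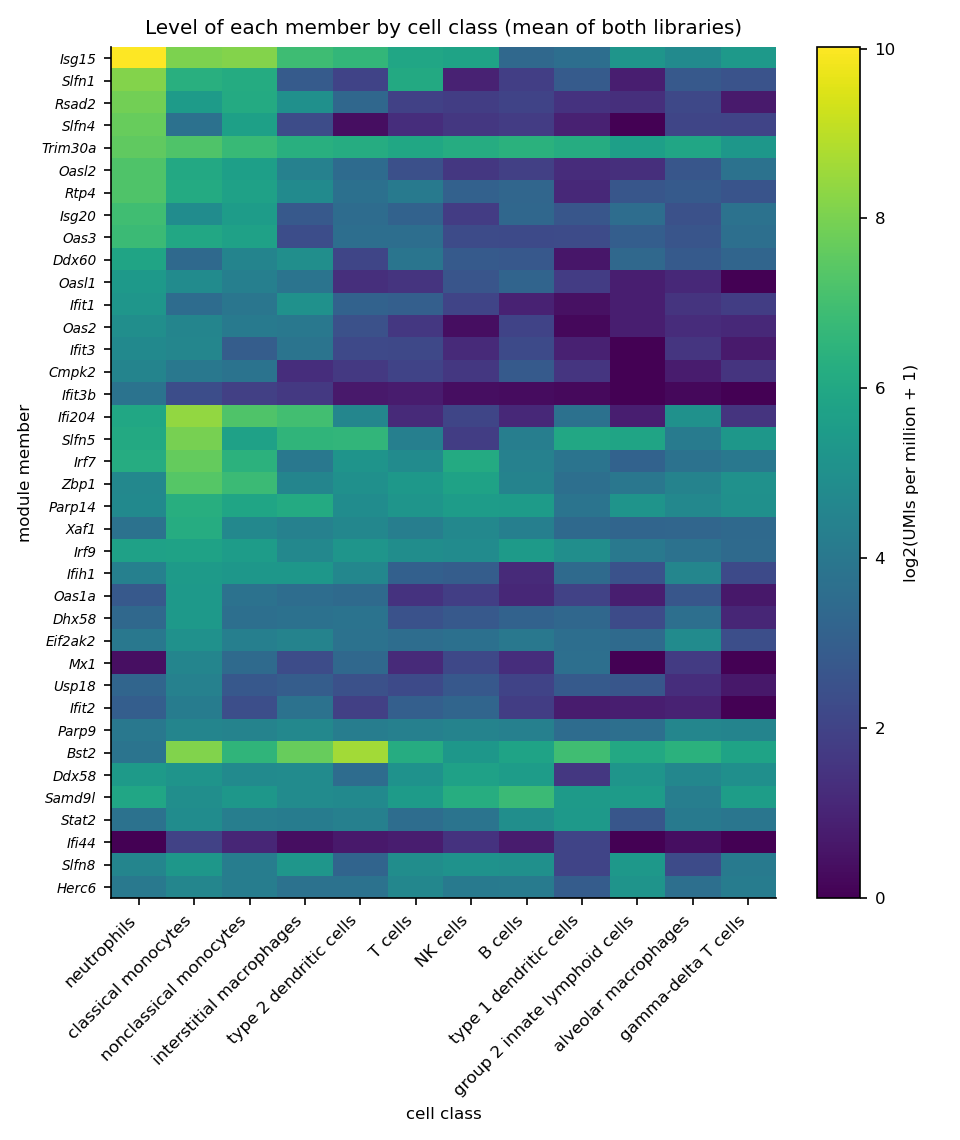
Level of each member (rows) in each of 12 cell classes (columns) as the mean of DEP500 and control, with colour giving log2(CPM + 1). Isg15 in neutrophils is the strongest entry (1306 CPM in DEP500, 766 in control), and Bst2 is brightest in type 2 dendritic cells (384 and 414).

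The plot of member levels shows that the module is shared out between classes. Averaged over the libraries and among the compared classes, 16 members peaked in neutrophils and 14 in classical monocytes, and the other 8 elsewhere. Of these classes, Bst2 peaked in type 2 dendritic cells (384 CPM in DEP500, 414 in control) and Samd9l in B cells (109 and 114). Plasmacytoid dendritic cells, which were too few to compare and are rich in Bst2, are described below. Outside neutrophils and classical monocytes few members were called. T cells had 5 of 36 higher and 0 lower, where 1.13% of all genes were higher and 4.58% lower. Beside Isg15 they were Ifit3, Dhx58, Rtp4 and Ifit1. Isg15, Ifit3 and Rtp4 were among the higher members of neutrophils as well. Type 2 dendritic cells had 4 of 27 higher (2.65% of all genes), namely Isg15, Oasl2, Rsad2 and Rtp4, and 1 lower (7.78% of all genes), Ifih1. None of those 4 stayed past the threshold without the richest cell of each library.

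Interstitial macrophages, the tissue macrophages of the lung wall, went both ways. Of 29 members 3 were higher (1.89% of all genes) and 4 lower (5.88% of all genes). Oas1a with 19 and 6 UMIs, Irf7 with 23 and 14 and Ifit2 with 19 and 12, each in DEP500 and control, were the higher ones. Beside Isg15, described above, the lower ones were Rsad2, Ifit1 and Oasl1. Rsad2 fell to 5 UMIs in DEP500, against 101 in control, but 72.3% of those control UMIs came from 1 cell. Ifit1 fell to 8 UMIs in DEP500, against 98 in control, and Oasl1 to 4, against 40. The module sum in this class was 1215 CPM in DEP500 and 1264 CPM in control, and the single richest cell held 8.22% and 12.5% of it.

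Alveolar macrophages had 4 of 34 members higher (1.23% of all genes), namely Slfn8, Rsad2, Oasl2 and Rtp4, and 2 lower (4.39% of all genes), Ifit1 and Oasl1. Oasl2 had 73 UMIs in DEP500 and 36 in control there, and 58.3% of the 48 Rsad2 UMIs in DEP500 came from 1 cell. Nonclassical monocytes, the patrolling monocytes of vessels, had 2 of 35 higher (2.39%), Ifit3 and Ddx58, and 2 lower (3.78%), Mx1 and Stat2. Mx1 had 9 UMIs there in DEP500 and 34 in control. This class carried the neutrophil transcripts S100a8, S100a9 and Retnlg at 33747 CPM in DEP500 and 29207 CPM in control. Subtracting a matching share of neutrophil RNA put its module log2 ratio at −0.33, against 0.01 before. NK cells had 0 higher (1.37%) and 2 of 26 lower (2.64%), Ifit1 and Parp9. B cells had Isg20 higher (0.91%) and Slfn1 lower (5.39%) of 32, type 1 dendritic cells Slfn1 lower (3.9%) and 0 higher (2.81%) of 22, and gamma-delta T cells Isg15 and Samd9l higher (1.98%) and 0 lower (3.04%) of 15. Group 2 innate lymphoid cells had none of 10 called in either direction, where 3.06% of all genes were higher and 3.91% lower.

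Whether the neutrophil difference was a shift of all cells or a gain of high cells was read from cells brought to 1000 UMIs each, which left out 35 DEP500 and 37 control neutrophils. A cell counted as high at 7 or more module UMIs, the smallest number reached by at most 10% of control cells. High cells made up 450 of 2583 DEP500 neutrophils (17.4%, 16 to 18.9) and 245 of 2712 control neutrophils (9.03%, 7.98 to 10.2), a ratio of 1.93 (1.65 to 2.26). Cells with no module UMI made up 14.2% in DEP500 and 25.9% in control. The median cell held 3 module UMIs in DEP500 and 1 in control. Cells below the high limit averaged 2.30 in DEP500 and 1.69 in control. Cells at or above it averaged 11.9 in DEP500 and 12.5 in control. The difference was thus not confined to high cells, which were more numerous in DEP500 and did not average more. A rise in all cells would also lift the share above a fixed limit, so a separate gain of high cells was not tested.

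**Figure D4:**
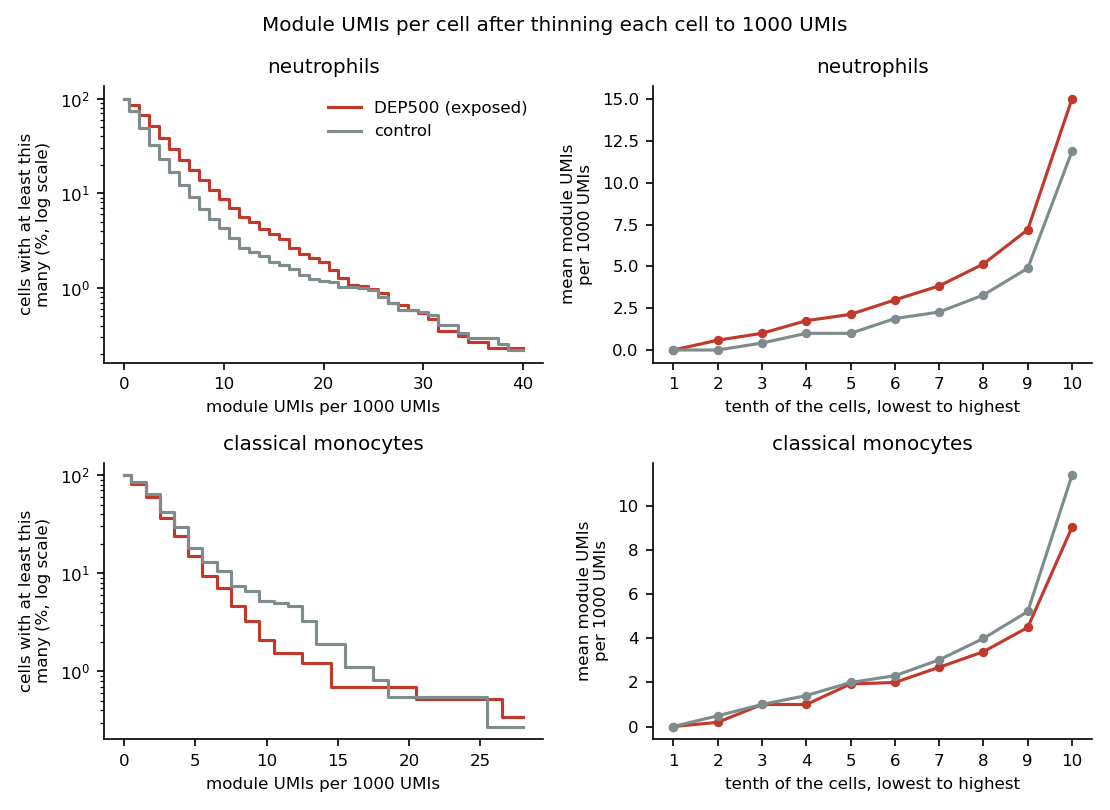
Module UMIs per cell after each cell was brought to 1000 UMIs, in neutrophils (top) and classical monocytes (bottom), DEP500 in red and control in grey; left panels give the percentage of cells with at least each number (log axis) and right panels the mean in 10 ranked bins of equal size. In neutrophils the DEP500 curve lies above control at middle counts (17.4% against 9.03% of cells at 7 or more). It meets control at the far end, where few cells lie (0.97% against 0.96% at 25 or more).

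In shares of cells the gap narrowed toward the far end of the pooled distribution, where few cells lay and no interval was made. Neutrophils with 20 or more module UMIs made up 1.86% of DEP500 cells and 1.18% of control cells, and those with 25 or more 0.97% and 0.96%. The 99th percentile was 24 in DEP500 and 23 in control at 1000 UMIs, and 49 and 43 at 2000 UMIs. Within the cluster led by Retnlg it was 23 in DEP500 and 16 in control at 1000 UMIs, so the narrowing did not hold in every cluster. Neutrophils were also ranked and split into 10 bins of equal size. The lowest bin was at 0 in both libraries and each of the others averaged more in DEP500. The next lowest bin averaged 0.59 in DEP500 against 0 in control. The top bin averaged 15.05 against 11.9, the largest difference of the bins at 3.14. Expressed per neutrophil, high cells supplied 2.07 module UMIs in DEP500 and 1.13 in control, and the other cells 1.90 in DEP500 and 1.53 in control. High cells thus held 52.2% of the module in DEP500 and 42.5% in control. Beside this, the 10 classical monocyte markers summed to 1445 CPM in DEP500 neutrophils and 1345 CPM in control neutrophils, with none at 0, and the 10 B cell markers to 34.1 and 76.4 CPM. Their part in the result was not tested.

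Single members were read by the share of cells that held them and by their UMIs per positive cell. Both values depend on the level of a member, so they do not show how its gap arose. Isg15 was seen in 49.6% of DEP500 neutrophils and 34.6% of control neutrophils at 1000 UMIs, with 2.70 and 2.30 UMIs per positive cell, so both values were higher. In B cells, which held little of it, 1.17% of DEP500 and 0.71% of control cells held an Isg15 UMI at the same depth. Whether those UMIs were the cells' own or free RNA was not tested. Oasl2 was seen in 18.3% of DEP500 and 8.44% of control neutrophils, with 1.24 and 1.23 UMIs per positive cell. Rsad2 was seen in more DEP500 cells (15% against 10.8% in control) with fewer UMIs per positive cell (1.71 against 2.10).

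Neutrophils were then split by the UMIs of the other members in the same cell, counted with cells brought to equal depth. Isg15 was thus read within coarse ranges of the rest of the module, the last of them open. A cell counted as having none could still hold such UMIs at its full depth. Within a range the level of the other members can still differ between the libraries, so the split does not match them. In cells with none, Isg15 stood at 768 CPM in DEP500 and 444 CPM in control, a log2 ratio of 0.79. The ratio was 0.77 at 1 to 2 other UMIs and 0.61 at 3 to 6. At 7 or more it was 0.09 (−0.00 to 0.18), with 4003 CPM in 224 DEP500 cells and 3770 CPM in 150 control cells. The interval thus included 0 in cells with many other member UMIs and lay above 0 in cells with fewer. Oasl2 ran from 1.46 in cells with none to 0.35 at 7 or more, and Rtp4 from 0.94 to 0.01. Slfn1 went from 0.34 in cells with none to 0.21 at 1 to 2 and 0.11 (−0.06 to 0.27) at 3 to 6. At 7 or more Slfn1 was at 0.37 (0.16 to 0.58). Rsad2 ran from 0.82 to −0.84, and in the richest cells it stood at 845 CPM in DEP500 and 1510 CPM in control. Among high cells, Rsad2 made up 8.25% of module UMIs in DEP500 and 13.3% in control, and Isg15 35.6% and 30.6%.

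**Figure D5:**
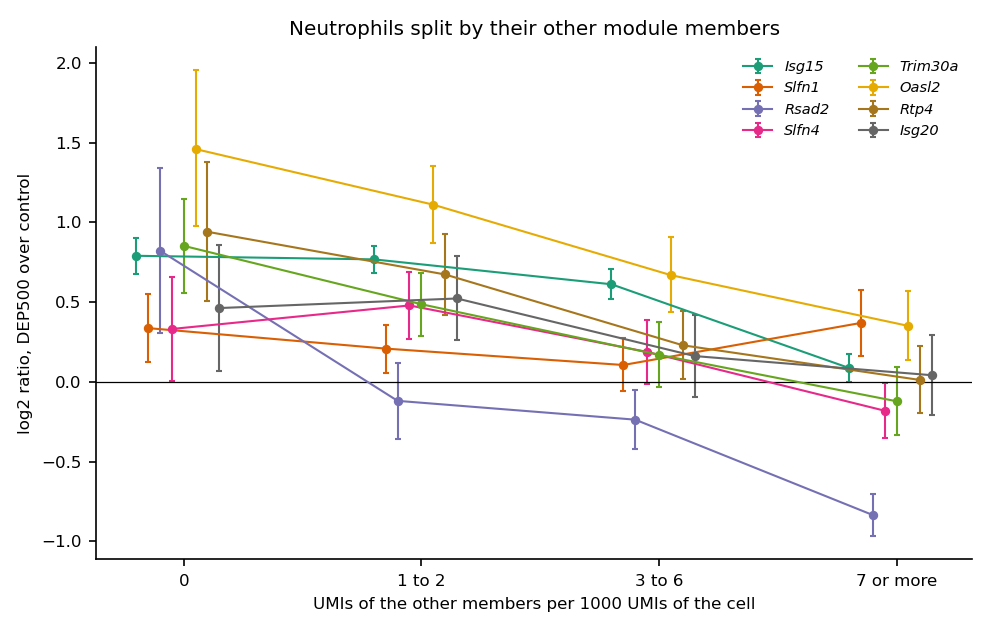
Log2 ratio of DEP500 over control (y axis) for the 8 members with the most UMIs, in neutrophils split by the UMIs of all other members per 1000 UMIs of the cell (x axis), with exact 95% intervals of counting error. Isg15 goes from 0.79 in cells with no other member UMI to 0.09 at 7 or more, and Rsad2 from 0.82 to −0.84.

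Both main neutrophil clusters took part. The cluster led by Retnlg, S100a8 and S100a9 held 3887 CPM in DEP500 and 2155 CPM in control, a log2 ratio of 0.85 (0.80 to 0.90). The cluster led by Acod1, G0s2 and Hdc held 4066 CPM in DEP500 and 2908 CPM in control, a log2 ratio of 0.48 (0.45 to 0.51). Isg15 was at 1316 CPM in DEP500 and 570 CPM in control in the Retnlg cluster, and at 1346 and 885 CPM in the Acod1 cluster. The clusters were close to each other in DEP500 and apart in control.

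In classical monocytes high cells made up a smaller share in DEP500, with an interval that depended on the depth used. At 1000 UMIs their limit was 8 module UMIs, reached by 27 of 579 DEP500 cells (4.66%, 3.1 to 6.71) and 27 of 365 control cells (7.4%, 4.93 to 10.6), a ratio of 0.63 (0.36 to 1.12). Cells with none made up 18.1% in DEP500 and 15.3% in control, and cells below the limit averaged 2.10 and 2.27. The top 10% of cells averaged 9.05 in DEP500 and 11.4 in control. At 2000 UMIs, where the limit was 13, high cells were 25 of 573 in DEP500 (4.36%, 2.84 to 6.37) and 33 of 362 in control (9.12%, 6.36 to 12.6), a ratio of 0.48 (0.27 to 0.83). Cells below that limit averaged 4.30 in DEP500 and 4.44 in control. The interval of the ratio thus included 1 at 1000 UMIs and lay below 1 at 2000 UMIs.

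Genes around the module were read in the same classes. Of all genes, 2.69% were higher and 7.1% lower in neutrophils, and 5.07% higher and 5.87% lower in classical monocytes. A count of 1 in the short lists below is not read as a result about the list. Of 10 interferon genes none reached 20 UMIs in neutrophils, where Ifng had 2 UMIs in DEP500 and 7 in control and the others 0. In classical monocytes Ifnb1, interferon beta, had 16 UMIs in DEP500 and 18 in control, or 2.20 and 5.56 CPM, and was lower (−1.34). Of 16 receptors and signal transducers in neutrophils, 0 were higher and 1, Irf8, was lower, with a median log2 ratio of 0.00. The kinase Jak1 stood at 262 CPM in DEP500 and 265 CPM in control. Of 15 counted in monocytes none was called. Sensors and adaptors had 1 of 8 higher in neutrophils, Mb21d1 (cGAS), and 1 of 10 higher in monocytes, Tmem173 (STING), at 61.6 CPM in DEP500 and 38.6 CPM in control. Brakes on the pathway outside the module had none of 6 called in either class. Socs3 stood at 185 CPM in DEP500 neutrophils and 135 CPM in control neutrophils. The members Usp18 and Isg15, also listed as brakes, were not in that count and were called higher in neutrophils, as given above.

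Other interferon-stimulated genes did not all follow the members. In neutrophils 3 of 40 were higher (Znfx1, Gbp7, Ifi47) and 3 lower (Ifi203, Mndal, Mitd1), where 2.69% of all genes were higher and 7.1% lower, with a median of 0.16. Slfn2 stood at 559 CPM in DEP500 and 434 CPM in control, and Ly6e, a membrane protein that hinders entry of some viruses, at 416 and 413 CPM. In classical monocytes 0 of 47 were higher and 7 lower, where 5.07% of all genes were higher and 5.87% lower, with a median of −0.20. Among those lower was Cxcl10, a chemokine for T cells, at 259 CPM in DEP500 and 432 CPM in control. Of genes that answer mainly to interferon gamma, 2 of 14 were higher in neutrophils, led by Gbp2, a GTPase that attacks pathogen vacuoles, at 50.6 CPM in DEP500 and 20.7 CPM in control. In monocytes 3 of 15 were lower, Gbp2 among them at 39.6 CPM in DEP500 and 66.7 CPM in control. Gbp2 therefore went in opposite directions in these classes, as the module sum did.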

How the data were processed

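The authors deposited raw counts of UMIs per gene and barcode for called cells. The library kit was the 10x 3' kit v3.1, per the labels' protocols, and Cell Ranger 3.1.3 with mm10 was used, per the submitters' processing notes, while the matrix header names 3.1.0.

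Barcodes with at least 500 UMIs, 200 genes and at most 10% mitochondrial UMIs were kept, and simulated-doublet scoring removed 706 DEP500 and 751 control barcodes. Leiden clustering (leidenalg 0.10.2, igraph 0.11.9, scikit-learn 1.9.0, Python 3.11.15) at resolution 1 left out the module and pathway genes. Clusters were named where 3 or more listed markers stood among the 50 leading genes by fold, with a pseudocount of 50 CPM chosen after seeing the data. UMIs were summed per class and library and divided by the class total (CPM). Intervals were exact Poisson, Clopper-Pearson or conditional binomial at 95% (SciPy 1.17.1). Depth set their width: class totals ran from 636817 UMIs (group 2 innate lymphoid cells, DEP500) to 10159528 UMIs (alveolar macrophages, DEP500). The interval calculation was tested on simulated data. Alternatives changed the cell filter, doublets, clustering, gating, weighting, count minimum and thinning. Every measured member was named with a value or a range in at least 1 class. Intervals were given mainly for members with the most counts or called, and not for every called member. No per-sample column was left unused. The members and lists were chosen with earlier results of these data known.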

Additional observations from a re-analysis of the deposited data

Results flagged for a closer look

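The direction of the module differed between cell classes, with no test of the difference itself, since each class had 1 library per group. The module log2 ratio of DEP500 over control lay above 0 in neutrophils and below 0 in classical monocytes, and the ratios were 0.81 apart. The T cell ratio and the classical monocyte ratio lay on opposite sides of 0 as well, 0.39 apart. Type 1 dendritic cells and classical monocytes were 0.41 apart. In each of the 3 pairs the intervals of counting error did not overlap, and the differences were not tested. Classical monocytes kept a ratio below 0 in every alternative run, between −0.26 and −0.17, and neutrophils a ratio above 0, between 0.48 and 0.85.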

How the results depend on the processing

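No module ratio whose interval excluded 0 changed sign, and neutrophils and classical monocytes kept their directions in every alternative run. No paired analysis was possible because each group has 1 library, and for the same reason no library could be left out. Gamma-delta T cells fell under 50 cells with the stricter cell filter, with doublets kept, at Leiden resolution 0.6 or 1.6 and with cells gated one by one, so those values were not made. Shallow classes limit what can be seen, since few members reach 20 UMIs there. The causes of the changes below were not tested.

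Module log2 ratios moved as follows. With each cell weighing the same they were −0.059 in B cells, 0.088 in T cells, −0.17 in classical monocytes, 0.43 in gamma-delta T cells and −0.13 in nonclassical monocytes. Centred on the median of all genes (−0.10 in neutrophils, −0.11 in T cells, −0.14 in B cells) they were 0.68 in neutrophils, 0.27 in T cells and 0.16 in B cells. With doublets kept they were 0.15 in alveolar macrophages, 0.14 in nonclassical monocytes and 0.35 in type 1 dendritic cells. In neutrophils the ratio was 0.62 with the stricter cell filter, 0.61 with no cell filter and 0.65 without the highest 1% of cells. The stricter filter gave −0.076 in type 2 dendritic cells. Alveolar macrophages were at −0.026 with cells gated one by one and −0.011 without the highest 1% of cells. Subtracting neutrophil RNA gave −0.33 in nonclassical monocytes. Alternatives chosen after seeing the data were leaving out Isg15 (neutrophils 0.50), leaving out the 3 largest members, leaving out the richest cell of each library, and taking single clusters: 0.48 and 0.85 in neutrophils, −0.20 and 0.15 in nonclassical monocytes, and 0.16 in the alveolar cluster with Ccl17, Axl and Mrc1 among its leading genes.

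The ratio of high-cell shares moved to 1.61 in neutrophils without Isg15, 1.47 in nonclassical monocytes with doublets kept and 1.13 there when thinned to 2000 UMIs, 1.27 in NK cells and 4.39 in type 2 dendritic cells when thinned to 500 UMIs, 0.85 in T cells gated one by one, and 1.43 in alveolar macrophages and 0.32 in classical monocytes with the limit set at 5% of control cells. In classes with few high cells the ratio crossed 1 at 2000 UMIs without leaving its wide interval at 1000 UMIs: 0.81 against 4.04 in type 1 dendritic cells, 0.79 against 2.34 in gamma-delta T cells and 1.46 against 0.55 in group 2 innate lymphoid cells. In classical monocytes it was 0.48 at 2000 UMIs, with an interval below 1.

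Counts of members called moved by over 1.5 times in small classes. Centring gave 4 higher in B cells and 1 lower in NK cells. With doublets kept there were 2 higher and 0 lower in B cells, 1 lower in T cells, 1 lower in alveolar macrophages, 0 higher in classical monocytes, 1 lower in group 2 innate lymphoid cells, 1 higher and 1 lower in nonclassical monocytes, 5 higher and 0 lower in type 1 dendritic cells and 0 lower in type 2 dendritic cells. With a minimum of 100 UMIs there were 3 higher in T cells, 2 higher and 0 lower in alveolar macrophages, 1 higher and 0 lower in nonclassical monocytes, 1 higher and 0 lower in type 2 dendritic cells, 1 lower in NK cells, 0 higher in gamma-delta T cells and in interstitial macrophages, and 0 lower in B cells and in type 1 dendritic cells. A minimum of 1 UMI gave 1 higher in group 2 innate lymphoid cells. The stricter cell filter gave 4 lower in B cells, 1 lower in NK cells, 2 higher in type 1 dendritic cells, and 0 higher and 2 lower in type 2 dendritic cells. Without the richest cell of each library there were 5 lower in classical monocytes, 1 lower in NK cells, 1 lower in alveolar macrophages, 1 higher in nonclassical monocytes, 1 higher in type 1 dendritic cells and 0 higher in type 2 dendritic cells. In neutrophils every alternative kept the count of higher members within 1.5 times of 12.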

Other observations

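Plasmacytoid dendritic cells, the blood cells best known for making type I interferon, numbered 24 in DEP500 and 23 in control, too few for a comparison. They held the highest module level of any class, at 6113 CPM in DEP500 and 5372 CPM in control. Bst2, which is also a marker of these cells, supplied 1235 of 1494 module UMIs in DEP500 and 900 of 1154 in control. Irf7 stood at 241 CPM there in DEP500 and 163 CPM in control.

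Mature dendritic cells, which carry antigen to lymph nodes, numbered 33 in DEP500 and 23 in control and held 1065 and 801 CPM of the module. Isg15 stood at 186 CPM in DEP500 and 55.6 CPM in control, but 48.2% and 53.3% of those UMIs came from 1 cell in each library.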
